A study of Sparus aurata with 53 samples.

Results

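The 98 genes described here are those of the gilthead sea bream (*Sparus aurata*) larva whose daily expression curve peaked late in the night, from 18 to under 21 h zeitgeber time (ZT, hours after the lights came on). They were chosen by their own measured values. A cosine of a 24 h period was fitted to the log2 intensity of each of 13940 probes on 53 arrays. A probe was selected on an R2 (share of the variance taken by the cosine) of at least 0.3, an amplitude (height of the cosine above its middle) of at least 0.4 on the log2 scale, a signal well above background on at least 27 arrays, and a fitted peak inside the window. The R2, amplitude, peak time and the differences between times that follow are therefore descriptions of the selected genes, without a test. Of the 13940 probes, 11722 passed the background limit, 1792 of these also the R2 limit and 888 also the amplitude limit. The 98 members were 0.703% of all probes and 11% of the 888 rhythmic ones.

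Each array measured the RNA of 1 whole larva, 30 days after hatching, on a custom oligonucleotide array of this species read in 1 colour (Cy3). No genotype or treatment is labelled, and the larvae of all groups were reared at a constant temperature on rotifers and then *Artemia* nauplii, under 12 h of light and 12 h of darkness, with lights off at ZT 12 h. The groups differed only in the time of sampling, every 3 h from 0 to 24 h, with 6 larvae at each time except 12 h, where 5 were analysed. The larvae at 0 h and 24 h were different fish at the same clock hour. The larvae of a time came from several tanks, which are not given for single arrays, so the spread between larvae and p-values below take no account of larvae that shared a tank. In a whole larva, fewer cells of a type and less RNA per cell cannot be told apart.

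Daily rhythms of transcription in vertebrates are set by a feedback loop in which Clock and Bmal1 proteins switch on *period* and *cryptochrome* genes, whose products then shut Clock and Bmal1 off. Many other genes follow this loop, the light or the meals, each with a peak at its own hour. The 3 members that could be named all appear in the study's lists of cell cycle, neuregulin and neuromuscular junction pathways. Myc proteins promote the start of the cell cycle. The neuromuscular junction is the synapse where acetylcholine from a motor neuron opens receptors on the muscle fibre. The study drew its lists from these same larvae, and nothing is read from them about the unnamed members.

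Only 3 of the 98 members could be named, through clone codes the study pairs with a gene. These were a transcriptional regulator Myc-1-like (C3_lrc4088), a pro-neuregulin-4-like membrane-bound isoform (C3_c57938) and the acetylcholine receptor subunit alpha (C2_5203). The other 95 are called by their clone codes. Of the 98 codes, 82 belonged to the C2 series of the array's design (83.7%, against 82.5% of all probes), 13 to the C3 series (13.3%, against 15.1%) and 3 to other series. Named codes made up 156 of the 888 rhythmic probes, a larger share than among the members. A code is named here only where the study prints it beside a gene. The study states that the genes of its array were all annotated, so these counts do not tell how well the members are known.

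The mean of all members traced a low through the second part of the day and a high through the late night. For each larva the 98 log2 values were averaged after subtraction of each probe's mean over the arrays. By day this mean was 0.129 ± 0.0928 (SD, n = 6) when the lights came on, and the larvae of 3, 6 and 9 h averaged -0.214 ± 0.268, -0.612 ± 0.175 and -0.612 ± 0.258. At lights off it was -0.354 ± 0.253 (n = 5), and the larvae of 15, 18, 21 and 24 h averaged 0.248 ± 0.14, 0.523 ± 0.149, 0.63 ± 0.121 and 0.21 ± 0.177. At 6 h the larvae lay between -0.833 and -0.393, with a median of -0.562, and at 21 h between 0.494 and 0.787, with a median of 0.611. No larva of 6, 9 or 12 h reached the lowest larva of 15 h, at 0.0832, and the larvae of 18 h (0.357 to 0.763) overlapped those of 21 h along most of their range.

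**Figure D1:**
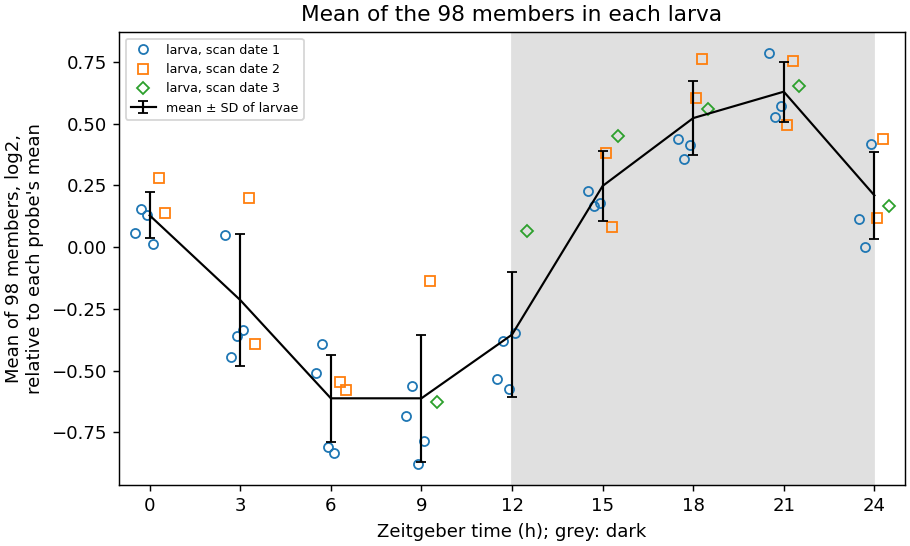
Mean of the 98 members in each larva (points, marked by scan date) against zeitgeber time, with the mean ± SD of the larvae of a time. The larvae of 21 h lie between 0.494 and 0.787 and those of 6 h between -0.833 and -0.393, all on the log2 scale relative to each probe's mean over the arrays.

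The curve kept its shape without its strongest members, as it had to, since the others were selected by the same rule. Leaving out the 8 members of amplitude over 1, the larvae of 6 and 9 h averaged -0.549 ± 0.168 and -0.541 ± 0.252, and those of 18 and 21 h 0.485 ± 0.155 and 0.539 ± 0.12 (SD, n = 6). The median of all probes, which is no target of the selection, was lowest at 6 h and highest at 21 h as well, and its means differed by 0.154 on the log2 scale. With each array centred on its own median instead of its 75th percentile, all 98 members kept a fitted peak within 1 h of the first one, and their median amplitude was 0.516 in place of 0.564. Under this centring 68 of the 98 still met the rule, and 30 did not, the acetylcholine receptor subunit alpha among them.

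The Myc-1-like gene had the largest amplitude among the named members, 1.088 on the log2 scale with a peak at 20.31 h and an R2 of 0.659, and was well above background on all 53 arrays. Myc proteins are transcription factors that, paired with Max, switch on genes of growth and of entry into S phase. Its log2 value, relative to the array's 75th percentile, had its lowest, median and highest larva at -3.31, -2.77 and -2.34 at 0 h, at -3.71, -2.64 and -2.38 at 3 h, at -4.30, -3.56 and -3.19 at 6 h, and at -4.65, -3.92 and -2.67 at 9 h. The 5 larvae of 12 h read -3.26, -4.29, -3.16, -3.27 and -3.25. The same 3 figures were -3.27, -2.96 and -2.14 at 15 h, -2.46, -1.90 and -1.33 at 18 h, -1.91, -1.27 and -0.66 at 21 h, and -3.02, -2.04 and -1.53 at 24 h. The larvae of 21 h all lay above those of 9 h, and the means of the groups, -1.27 ± 0.46 and -3.85 ± 0.72 (SD, n = 6), stood 5.99-fold apart. From 12 h on, the group means stepped upward through 15, 18 and 21 h, while the larvae of 0 h and 3 h overlapped in most of their range.

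The pro-neuregulin-4-like gene had an amplitude of 0.687 with a peak at 19.29 h and an R2 of 0.441, on 53 arrays well above background. Neuregulins are growth factors of the EGF family that bind ErbB receptors, and neuregulin 4 is a ligand of ErbB4 in mammals. Its lowest, median and highest larva stood at -1.73, -1.44 and -0.83 at 0 h, -1.84, -1.25 and -0.87 at 3 h, -2.34, -1.84 and -1.36 at 6 h, and -3.26, -2.02 and -0.95 at 9 h on the log2 scale. At 12 h the 5 larvae read -0.43, -1.62, -0.73, -1.55 and -1.28. The values were -1.37, -1.13 and -0.75 at 15 h, -1.05, -0.48 and -0.14 at 18 h, and -1.95, -0.79 and 0.33 at 24 h. At 21 h, where 1 spot was an outlier and 5 larvae remained, they were -0.80, -0.45 and -0.01. The groups of 21 h and 9 h did not overlap and their means differed 2.95-fold. The highest single larva of this gene was at 24 h, a time at which the larvae spread over more than the range of any other night time.

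The acetylcholine receptor subunit alpha, the subunit that binds acetylcholine in the muscle receptor, had a flatter curve, with an amplitude of 0.563, a peak at 20.14 h and an R2 of 0.359. Its lowest, median and highest larva on the log2 scale were -1.71, -1.57 and -1.24 at 0 h, -3.14, -2.20 and -1.70 at 3 h, -3.19, -2.38 and -1.80 at 6 h, and -3.83, -2.21 and -1.37 at 9 h. The 5 larvae of 12 h read -3.19, -2.26, -1.95, -2.30 and -2.96. The values then were -2.0, -1.63 and -1.30 at 15 h, -2.71, -1.47 and -0.88 at 18 h, -2.28, -1.70 and -0.70 at 21 h, and -2.20, -1.59 and -1.01 at 24 h. The means of 0, 15, 18, 21 and 24 h lay close together, from -1.64 at 15 h to -1.51 at 0 h, and those of 3 to 12 h from -2.53 to -2.27. The highest mean, at 0 h, and the lowest, at 12 h, were 2.03-fold apart and their larvae did not overlap. The fitted peak of this gene is thus the middle of a plateau rather than a maximum at 20 h. It failed the rule under centring on the array's median and at an R2 of at least 0.4. It was printed on 2 spots, whose separate fits gave amplitudes of 0.562 and 0.566 and peaks of 20.26 and 20.01 h.

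The largest amplitudes belonged to genes with no name here. Clone C2_21331 had an amplitude of 2.57, a peak at 20.86 h and an R2 of 0.913. Its lowest, median and highest larva on the log2 scale were 4.76, 4.97 and 5.44 at 21 h and -1.02, -0.68 and -0.32 at 9 h, a difference of 53.5-fold between the means. Its larvae of 18 h (3.30, 3.67 and 4.92, n = 5 after 1 outlier spot) overlapped those of 21 h, and those of 0 h (3.09, 3.40 and 3.73) overlapped those of 24 h (2.79, 3.01 and 3.57).

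Clone C3_c4691 had an amplitude of 1.93 with a peak at 18.88 h. Its larvae ran from 2.17 to 2.90 at 21 h, with a median of 2.61, and from -1.90 to -0.15 at 6 h, with a median of -1.07, so that the means were 12.4-fold apart. Unlike C2_21331, whose mean was 1.56 ± 0.73 at 15 h and 3.85 ± 0.67 at 18 h (SD, n = 6 and 5), it stood almost as high at 15 h, with 1.79 ± 0.37, as at 18 h, with 2.25 ± 0.20 (SD, n = 6). Clone C3_c17121 had an amplitude of 1.23 with a peak at 19.39 h, and its larvae ran from -0.84 to 0.20 at 21 h (median -0.36) and from -3.48 to -2.47 at 6 h (median -3.08), 6.46-fold apart in the means.

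A pair of the strongest members was near background at the low of the curve, though both were well above it on all 6 arrays of 0 h. Clone C2_16804 (amplitude 1.40, peak 20.96 h) was well above background on 41 arrays, on all 6 of 21 h but on 1 of 6 at 9 h. Its larvae ran from -2.98 to -0.77 at 21 h (median -2.74) and from -6.86 to -3.89 at 9 h (median -5.26). Clone C2_13023 (amplitude 1.24, peak 18.99 h) was well above background on 42 arrays, on 6 of 6 at 21 h and 2 of 6 at 6 h, with larvae from -2.97 to -1.82 at 21 h (median -2.50) and from -6.56 to -3.56 at 6 h (median -5.19). The larvae of these times did not overlap for either clone, but the day values below background carry no exact level and no fold is given.

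**Figure D2:**
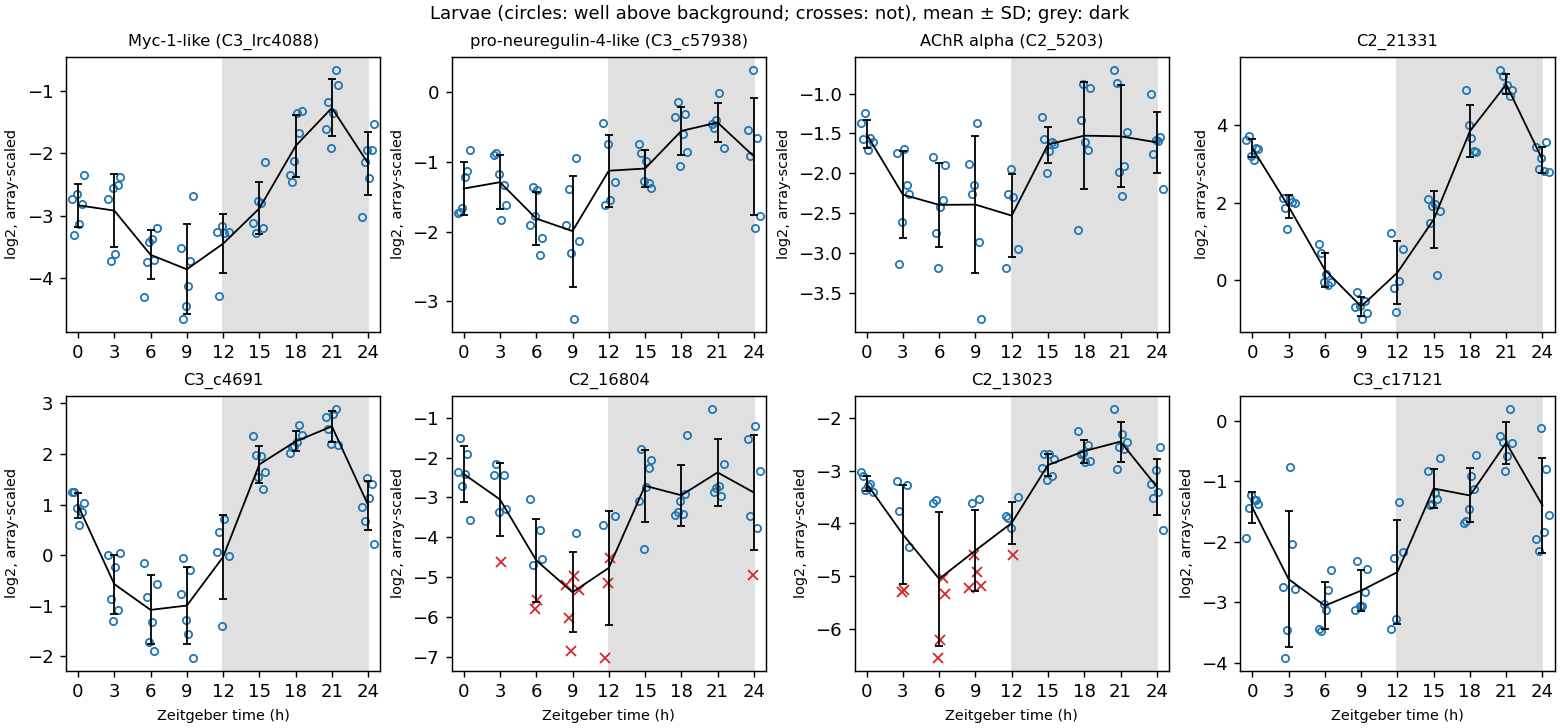
Log2 value of the 3 named members and of the 5 members of largest amplitude in each larva against zeitgeber time, relative to the array's 75th percentile, with the mean ± SD of a time. Circles are well above background and crosses are not; C2_21331 spans -1.02 to 5.44, and the acetylcholine receptor subunit alpha stays between means of -1.64 and -1.51 from 15 to 24 h and at 0 h.

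Over all 98 members the amplitude had a median of 0.564 and ran from 0.408 to 2.57, the R2 had a median of 0.419 and ran from 0.303 to 0.913, and 8 members had an amplitude over 1. The fitted peak fell between 18 and 19 h in 29 members, between 19 and 20 h in 40 and between 20 and 21 h in 29, with a median of 19.52 h. The median amplitudes of these 3 sets were 0.557, 0.577 and 0.556. In 54 members the highest of the 9 means was the one of 21 h, in 35 that of 18 h, in 4 that of 15 h, in another 4 that of 24 h and in 1 that of 0 h. The lowest was that of 9 h for 46 members, that of 6 h for 44, that of 12 h for 5 and that of 3 h for 3.

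Between neighbouring times the largest median step was the one after lights off. A cosine that peaks in the window rises most steeply there, so the place and direction of this step follow from the rule. Its size was not tested, and nothing about darkness is read from it. From 12 h to 15 h the mean was higher in 95 of 98 members, with a median difference of 0.569 on the log2 scale. It was higher in 79 members from 15 h to 18 h (median 0.254) and in 60 from 18 h to 21 h (median 0.0938). Toward the light the mean was lower in 93 members at 24 h than at 21 h, with a median difference of -0.346, and lower in 90 at 3 h than at 0 h and in 91 at 6 h than at 3 h (medians -0.321 and -0.384). Between 6 h and 9 h there was no common direction, with 50 members lower at 9 h. From 9 h to 12 h, still in the light, 84 members were higher, with a median of 0.233.

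**Figure D3:**
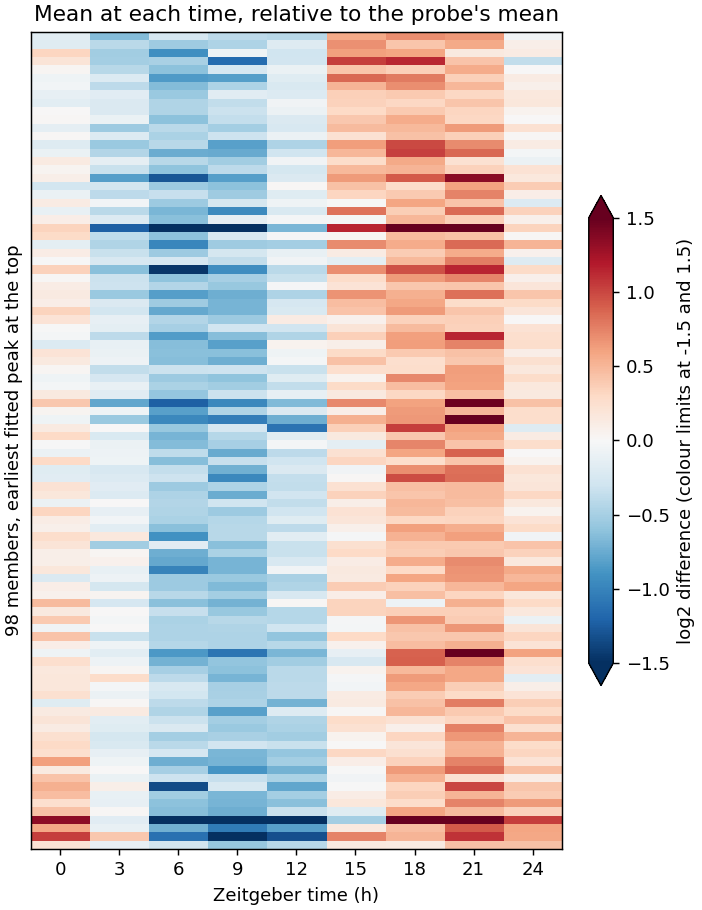
Mean of each of the 98 members (rows, earliest fitted peak at the top) at each zeitgeber time (columns), as the log2 difference from the member's mean, with colours limited at -1.5 and 1.5. Between 12 h and 15 h the mean was higher in 95 of the 98 rows, a rise that the selected peak window brings with it.

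The difference between the highest and the lowest mean of a member was taken over the 62 members well above background on all 53 arrays, since the low values of the others have no exact level. It had a median of 1.18 on the log2 scale and ran from 0.799 to 5.74. It was at least 2-fold in 50 of the 62 (80.6%), against 10.1% of the 9194 probes well above background on all arrays. The larvae of the highest time all lay above those of the lowest time in 69 of 98 members, against 15.6% of all probes. As the selection used these differences, nothing is read from either count. A mean below the array's 75th percentile was found in 80 of 98 members (81.6%) and in 70.9% of the 11722 probes above background, with median levels of -2.62 and -1.54. The share well above background on all 53 arrays was 63.3% of the members and 78.4% of those probes. The SD between larvae of a time had a median of 0.46 over the members and 0.387 over the probes above background.

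Members near a limit looked much like the probes just outside it. The lowest R2 inside were 0.303 (C2_43921) and 0.311 (C2_29211), and the nearest outside were 0.2996 (C2_71398) and 0.2995 (C2_12502). The smallest amplitudes inside were 0.408 (C2_13001) and 0.41 (AM969112), with 0.399 (C2_53492) and 0.394 (C2_30518) outside. The earliest peaks inside were 18.02 h (C2_15512) and 18.05 h (C2_14313), and C2_3294 and C2_24014 both lay just before, at 17.98 h. The latest inside were 20.999 h (C2_8132) and 20.96 h (C2_16804), with 21.037 h (C2_4481) and 21.041 h (C2_49669) just after. The fewest arrays well above background were 29 (C2_10431) and 30 (C2_19385) inside, and 26 (C2_23595) and 25 (C2_64644) outside.

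Of the 7 members printed on 2 spots, 6 had both spots inside the window of peak times. The exception, C2_69929, gave 18.25 h and 17.92 h. The 2 amplitudes of a member differed little, the widest pair being 0.437 and 0.385 in C2_52651. The median difference between the 2 spots on an array ran from 0.0985 (C2_5495) to 0.282 (C2_51332) on the log2 scale.

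The neighbouring windows, both in the dark, lay on either side of the members' window. With the same limits, 62 probes had their fitted peak from 15 to under 18 h and 160 from 21 to under 24 h. The mean of the 62 was already high at 15 h, at 0.702 ± 0.0881 (SD, n = 6), where the members stood at 0.248, and was down to -0.231 ± 0.152 at 24 h. The mean of the 160 was still at -0.363 ± 0.156 at 15 h and stayed at 0.567 ± 0.138 at 24 h. These differences follow from the windows.

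None of the 7 core clock genes was a member. Of these, *per3*, a repressor of the loop, peaked closest, at 23.51 h with an amplitude of 1.46, or 3.98 h after the median member. Its partners *per2* (3.00 h), *cry2* (3.06 h), *cry1* (3.50 h) and *per1* (4.54 h) peaked in the first hours of light. The activators *bmal1* (10.01 h) and *clock* (10.80 h) stood at -9.51 h and -8.72 h from the median member. On the other side, the partners of *per3* stood from 7.48 h (*per2*) to 9.02 h (*per1*) from it. A distance of this size was thus not particular to the activators. *per2* was well above background on 5 arrays only. *per3* was so on 31 arrays, with 0 of 5 at 12 h, its lowest time, and *bmal1* on 34, with 0 of 6 at 0 h. The amplitudes of these genes rest in part on values with no exact level.

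**Figure D4:**
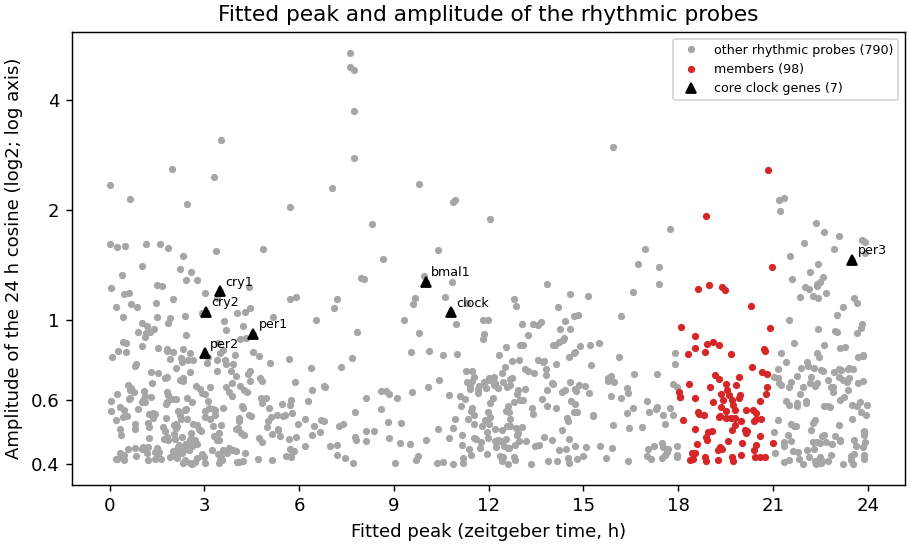
Amplitude of the 24 h cosine (log2 units, log axis) against the fitted peak of the 888 probes that met the other 3 limits, with the 98 members in red and the 7 core clock genes as triangles. *per3*, at 23.51 h, is the clock gene nearest after the members, and the members' largest amplitude is 2.57.

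A list of 26 genes was taken from the study and sorted here into 4 lists by function. The study drew these genes from its cluster with a peak at 18 to 21 h in the same larvae. A fitted peak in the window was thus favoured in advance, and the lists are no independent evidence of timing. In the list of the neuromuscular junction and neuregulin signalling, 5 of 7 genes had a fitted peak in the window and 2 were members, the pro-neuregulin-4-like gene and the receptor subunit. *musk*, the muscle kinase that gathers the receptors at the synapse, peaked at 19.0 h with an amplitude of 0.429 but an R2 of 0.291. Pro-neuregulin-1 peaked at 19.34 h with an amplitude of 0.173. Integrin alpha-5, a fibronectin receptor subunit, peaked at 18.19 h with an amplitude of 0.661 but was well above background on 14 arrays. Before the window, R-Ras2 peaked at 17.89 h and laminin subunit beta-1 at 17.24 h, with amplitudes of 0.223 and 0.218.

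In the list of G1 to S entry and Myc, 4 of 6 genes peaked in the window and the Myc-1-like gene was the only member. Max, the partner of Myc, peaked at 19.92 h with an R2 of 0.562 but an amplitude of 0.234, and E2F4, a regulator of cell cycle genes, at 19.29 h with 0.296. Outside the window, M-phase inducer phosphatase 1 peaked at 16.44 h with an amplitude of 0.503. Cyclin E1 peaked at 21.67 h with 0.512, and both genes met the other limits. In the apoptosis and NF-kappa-B list, 1 of 4 peaked in the window, and in the growth factor, TGF-beta and Ras list 2 of 9. Neither held a member. Over the 4 lists 12 of 26 genes peaked in the window. Of the 26, 17 met the R2 limit, 12 the amplitude limit and 24 the background limit. Their median amplitude was 0.358, below that of the members. The share of all probes that peak in the window without the other limits is not given here, so nothing is read from these counts.

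The larvae of 24 h were compared with those of 0 h. The cosine gives both times 1 common value, so a difference between them lowers the R2 that the rule set a limit on, and the selection acted against such differences. The study, with its own analysis, reported minimal differences between these times, in a small number of genes. No member differed between 24 h and 0 h in limma's test with Benjamini-Hochberg adjustment over all probes, where 0% of 13940 probes were called. At an unadjusted p under 0.05 there were 4 members (4.08%) and 449 of all probes (3.22%). The Myc-1-like gene had the smallest p, with 24 h higher by 0.67 ± 0.28 (SE) on the log2 scale and an adjusted p of 0.958 by limma. Its larvae of 24 h, from -3.02 to -1.53, overlapped those of 0 h. The pro-neuregulin-4-like gene differed by 0.46 ± 0.29 and the receptor subunit by -0.10 ± 0.31 (SE), both short of the threshold. The mean was higher at 24 h in 62 members and lower in 36. The same count over all probes is not given here. Their median was also higher at 24 h (-2.14) than at 0 h (-2.19), so nothing about the members is read from this direction. The size of the difference had a median of 0.20 over the members and 0.152 over the probes above background.

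The members' curves were also tested for a 12 h component, which likewise lowers the R2 of the 24 h cosine, so that a low count is favoured by the selection and nothing is read from it. None was called by limma's F test with Benjamini-Hochberg adjustment, against 0.1% (14) of 13940 probes. At an unadjusted p under 0.05 there were 6 members (6.12%) and 591 probes (4.24%). Among the members C2_16462 had the smallest p, with a 12 h amplitude of 0.28 and an adjusted p of 0.269 by limma. In the named members the 12 h amplitude was 0.23 for the Myc-1-like gene, 0.03 for the pro-neuregulin-4-like gene and 0.0066 for the receptor subunit, with limma adjusted p of 0.999, 0.999 and 1. A test of any departure of the 9 means from the cosine called no member and 22 of all probes, with 9 members (9.18%) and 605 probes (4.34%) at an unadjusted p under 0.05.

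The arrays lay on 7 slides, scanned on 3 dates, with at most 1 array of a time on a slide, so slide and time could be separated. In limma's F test with Benjamini-Hochberg adjustment 59 of 98 members (60.2%) differed between slides at a given time, against 63.6% of the 13939 probes that could be fitted. A slide effect lowers the R2 too, and nothing particular to the members is read from the count. Without replicate 2 the count was 39. The share of all probes in that setting is not given here, so nothing about the members is read from the change. The members' mean deviated from that of its time by -0.152 on slide 3 and by 0.137 on slide 5, on average over 8 arrays each. On slide 7 it deviated by 0.104 over 6 arrays. The Myc-1-like gene differed between slides (adjusted p = 5.08e-06 by limma), the pro-neuregulin-4-like gene and the receptor subunit did not pass (0.491 and 0.634).

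The members were also fitted within a scan date, on arrays that had served to choose them, so their hour is a description. The median amplitude was 0.576 and the median peak 19.77 h over the 32 arrays of the first date, and 0.499 and 19.13 h over the 15 arrays of the second. Single peaks left the window, as for C2_16804 at 21.35 h on the first date and C2_21331 at 21.27 h on the second. The third date held 6 arrays, too few for a fit. The Myc-1-like gene had amplitudes of 0.998 and 1.14 and the pro-neuregulin-4-like gene 0.669 and 0.706 on the first and second dates. The receptor subunit had 0.551 and 0.357, and C2_16804 had 1.60 and 0.634, so that these differed by over 1.5 times between the dates.

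Larvae of the same time differed in how far the members as a set were up or down. At 3 h the larvae had a members' mean of 0.0483, -0.444, -0.359, -0.335, 0.198 and -0.392, so that 2 of 6 stood with the larvae of 0 h and 4 did not. At 9 h larva 5 stood at -0.138 and the other 5 at -0.879 to -0.562. At 12 h larva 6 stood at 0.0649 and the other 4 at -0.572 to -0.347. The arrays of these 4 larvae had high shares of probes above background. At 3 h larvae 1 and 5 had 94.27% and 89.22% of probes well above background, against 74.7 to 83.67% in the other 4, and larva 5 of 9 h and larva 6 of 12 h had 89.68% and 86.8%, the highest of their times. The part of this share in the members' values was not tested. Without larva 5 at 9 h the rule kept 96 of the 98 members, and without larva 6 at 12 h it kept 94.

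The deviations of single larvae from the mean of their time were shared among members to a small degree. Over the 4753 pairs of members the correlation of these deviations across 53 larvae had a median of 0.146, against 0.0653 over the probes peaking from 15 to 18 h, 0.0947 over those peaking from 21 to 24 h and 0.0124 over 11254 probes above background with complete values. With slide removed as well, the medians were 0.167 over the 91 members with complete values, 0.0812, 0.105 and 0.0206. The share of pairs with a correlation over 0.5 was 8.84% among members and 7.96% among the probes above background with time alone removed. With slide removed too it was 8.28% and 1.55%, and 4.46% and 3.85% in the windows before and after. The points share arrays and their brightness, and the correlations are descriptions. The closest pair of members was C2_26506 and C2_14313, at 0.873. The named members did not follow each other: the correlation was -0.02 between the Myc-1-like and the pro-neuregulin-4-like gene, -0.23 between the Myc-1-like gene and the receptor subunit, and -0.27 between the pro-neuregulin-4-like gene and the receptor subunit.

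Membership depended on how background was treated. With a normexp background correction of the median spot signal and an offset of 50, the rule found 20 members, 16 of them among the 98, and 384 rhythmic probes of any hour in place of 888. Of the 98, 80 then fell under the amplitude limit, 64 fell under the R2 limit and 37 had a fitted peak outside the window. Their median amplitude was 0.264. The fitted peak stayed within 1 h of the first in 52 of the 98 and within 3 h in 97. Relative to the amplitude of the rule, the median was 0.437 in the 80 members below the array's 75th percentile and 0.798 in the 18 above it. Without the offset, a setting added after the data were seen, 42 members were found, 34 of them among the 98, with medians of 0.846 and 0.885. Of the 98, 59 then fell under the R2 limit, 21 under the amplitude limit, and 21 had a fitted peak outside the window. The Myc-1-like gene remained a member with and without the offset. The pro-neuregulin-4-like gene and the receptor subunit were lost with the offset of 50 and kept without it. With the offset, C2_16804 and C2_13023 fell under the amplitude limit as well, at 0.374 and 0.318.

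**Figure D5:**
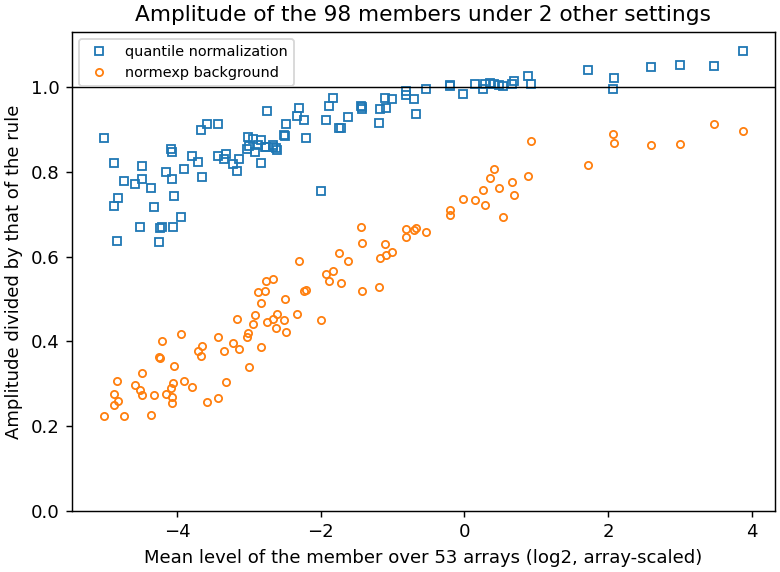
Amplitude of each of the 98 members under quantile normalization (squares) and under normexp background correction with an offset of 50 (circles), divided by its amplitude under the rule, against its mean level (log2, relative to the array's 75th percentile). Under normexp the ratio has a median of 0.437 in the 80 members with a level below 0 and of 0.798 in the other 18.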

How the data were processed

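Larvae were grouped by the zeitgeber time in the labels. The deposited scanner files hold 1-colour spot intensity (Cy3) that the authors extracted with Agilent Feature Extraction 11.5.1.1. The deposited log2 table holds values the authors scaled to the 75th percentile after background correction, centred on each probe's median; it served as an alternative (smallest correlation with the values computed here 0.9987). From 15744 spots per array, 536 controls were left out, and the processed signal of the others was put on a log2 scale less the array's 75th percentile (intensity 142 to 504) and averaged over the spots of a probe. The rule kept all spots. Levels and tests left out 974 outlier spots. No spot was saturated, and 74.2 to 94.3% of probes were well above background per array. The number of arrays limits the precision.

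Tests used limma 3.58.1 in R 4.3.3: 24 h minus 0 h in a model of 9 times, the F test of a 12 h cosine beside the 24 h one, and the F test of slide given time, each over all probes with Benjamini-Hochberg adjustment at 0.05. The cosine fit and these tests were checked on simulated log2 values with independent noise. The other steps were not checked in this way. Larvae sharing a tank could not be blocked.

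The members and gene lists were chosen with earlier results of these data known. Named were members on the lists, the 5 of largest amplitude, those with the smallest p, those nearest each limit and 7 clock genes. Names came from 277 clone codes that the study pairs with genes. A search for the members' clone codes in a RefSeq gene list matched 0 members. These codes are not RefSeq accessions, so the search could not tell whether a member has a counterpart there. No probe sequence was used here. Alternatives were other background corrections, scalings, filters and limits, blocks, and leaving out replicates.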

Additional observations from a re-analysis of the deposited data

Results flagged for a closer look

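In 81 groups of larvae (the members' mean and 8 members at 9 times), 6 had a larva far from the others of its time. Chance gives about 1 in 20 such groups. The Myc-1-like gene had larva 2 of 12 h at -4.28, while the other 4 lay between -3.27 and -3.16. Clone C2_21331 had larva 3 of 3 h at 1.31 and larva 5 of 15 h at 0.128, both below the rest of their times. Clone C2_16804 had larva 6 of 18 h at -1.43 and larva 1 of 21 h at -0.769, both above the rest. Clone C3_c17121 had larva 1 of 0 h at -1.95, below the rest.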

How the results depend on the processing

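The 98 members became 20 with normexp background and an offset of 50, 42 with normexp and no offset (added after the data were seen), 62 with quantile normalization (61 of them among the 98) and 58 with an R2 of at least 0.4. Offset and stricter limit shrink amplitudes or lists by construction; the cause of the rest was not tested. The count was 67 to 120 under median centring, outlier spots left out, the deposited table, the filter at 40 arrays, an amplitude of at least 0.5, slide or scan date as a block, and without the arrays of 0 h or of 24 h. Leaving out replicates or 1 larva gave 89 to 118. Of the 98, 15 stayed members under all of normexp with the offset, quantile normalization, median centring and the deposited table, and 48 without each replicate in turn.

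With normexp and the offset the amplitude was 0.485 for the Myc-1-like gene, 0.318 for C2_13023, 0.374 for C2_16804 and 0.698 for C3_c17121. No member was called for 24 h minus 0 h or for the 12 h component under any alternative run. Where calls over all probes were counted in these runs, they were 0 for 24 h minus 0 h and 5 to 21 for the 12 h component. With so few calls, nothing particular to the members is read from the lack of called members. The 24 h minus 0 h difference of the named members kept its sign. The members called between slides were 61 under quantile normalization, 62 in the deposited table and 39 to 57 without a replicate. The shares of all probes under these settings are not given here, so nothing is read from these counts. Same-numbered larvae of different times had deviations with a median correlation of 0.192, against -0.0505 for larvae of different numbers. It was over 0.1 in 136 of 208 same-numbered pairs. Larvae of the same number thus shared a part of their deviations. They also lay largely on the same slides, and the part of the slide in this was not tested. The main fit and tests did not use the number as a block. With the number as a replicate block the rule found 129 members, 95 of them among the 98, and 26 of 53 larvae correlated best on average with their own number. Dim members near background limit what can be said of day levels.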
